A study of Drosophila melanogaster with 3 samples.

Results

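The genes described here build or position the septate junction, the barrier between neighbouring epithelial cells of insects. They are dlg1, scrib, l(2)gl, cora, Nrx-IV, Nrg, sinu and kune, 8 of the 13968 protein-coding genes in the gene models used. They were taken by gene name from a list of septate junction and polarity genes. The list was drawn up with earlier results of these data known, so the choice is not independent of them. The study mapped the chromatin binding of BtbVII, a fly protein of the BTB-domain class, by chromatin immunoprecipitation and sequencing (ChIP-seq). The flies were a stable transgenic line with BtbVII fused at its C terminus to eGFP, and an anti-GFP antibody was used. Whole embryos of mixed sex, 0 to 24 h old, were collected as 3 biological replicates, which form 1 group with no second genotype, treatment or time. The chromatin of all cell types and all these hours is therefore averaged, and the sources used here give neither the promoter nor the copy number of the transgene.

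In many fly epithelia the septate junction lies on the lateral membrane, below the adherens junction, and stops solutes from passing between cells. Its core holds adhesion proteins, claudin-like membrane proteins and the cytoplasmic proteins that anchor them, and it forms in the course of embryogenesis. The lateral scaffold proteins Scrib, Dlg1 and Lgl set the border between the apical and the basolateral membrane, and in flies the loss of any of them leads to overgrowth of imaginal tissue. Nothing in these data measures the expression of these genes.

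Windows of 100 bases on each side of a peak summit show the DNA under 6 peaks of dlg1, scrib and Nrg. They are the peaks of these genes that all 3 replicates placed among their strongest regions, as described further on. They are read from the Release 6 genome on the plus strand, which is the coding strand of all these genes, 5′ to 3′, and peaks are numbered from the 5′ end of the gene. Capitals mark every match, on either strand, to the GAGA factor core GAGAG, to the word ACAGTG, to the palindrome TGACGTCA or to the word TTGTGCA.
dlg1 peak 1 (chrX:11384221-11384421): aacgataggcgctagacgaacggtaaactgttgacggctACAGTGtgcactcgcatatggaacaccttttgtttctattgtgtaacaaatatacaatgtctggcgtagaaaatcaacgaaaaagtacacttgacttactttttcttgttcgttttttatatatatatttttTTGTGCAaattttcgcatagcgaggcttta
dlg1 peak 3 (chrX:11390974-11391174): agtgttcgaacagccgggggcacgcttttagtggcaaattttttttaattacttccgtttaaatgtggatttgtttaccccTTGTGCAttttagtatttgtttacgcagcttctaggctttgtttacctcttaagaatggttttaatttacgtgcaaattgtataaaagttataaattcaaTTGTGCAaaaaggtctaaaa
scrib peak 2 (chr3R:26555962-26556162): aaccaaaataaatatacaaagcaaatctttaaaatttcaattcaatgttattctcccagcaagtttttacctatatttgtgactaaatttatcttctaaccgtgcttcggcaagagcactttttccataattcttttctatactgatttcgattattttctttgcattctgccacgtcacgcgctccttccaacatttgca
scrib peak 5 (chr3R:26568341-26568541): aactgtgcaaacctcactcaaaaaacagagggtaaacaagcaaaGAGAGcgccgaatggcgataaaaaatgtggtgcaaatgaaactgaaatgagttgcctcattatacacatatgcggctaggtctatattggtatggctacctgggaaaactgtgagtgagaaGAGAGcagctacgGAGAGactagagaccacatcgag
Nrg peak 2 (chrX:8538274-8538474): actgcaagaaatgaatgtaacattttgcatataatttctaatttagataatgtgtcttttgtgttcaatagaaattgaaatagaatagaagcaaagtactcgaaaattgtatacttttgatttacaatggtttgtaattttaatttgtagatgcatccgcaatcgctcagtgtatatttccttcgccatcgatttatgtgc
Nrg peak 4 (chrX:8542098-8542298): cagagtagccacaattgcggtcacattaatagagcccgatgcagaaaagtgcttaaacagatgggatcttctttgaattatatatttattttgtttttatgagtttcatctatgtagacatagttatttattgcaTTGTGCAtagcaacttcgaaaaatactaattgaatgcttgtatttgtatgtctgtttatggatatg

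The values are the signal that the authors' peak caller gave to each region, and they are compared only within a list. The list pooled over the replicates and each replicate list hold 30000 regions each, ranked here by signal with 1 as the strongest. A separate list, which passed the authors' irreproducible discovery rate (IDR) threshold, holds 5219 regions. These are exactly the 5219 of highest signal in the pooled list, with a lowest signal of 172.4. They are called strong peaks, and the other 24781 pooled regions are called lower candidates. A summit belonged to a gene when it lay in the gene or within 1000 bp of it. Because the length of each list is a setting, a gene with no candidate is not shown to be free of BtbVII. The read depth of the libraries is unknown, and no value below carries an error from it.

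Strong BtbVII peaks lay at 4 of the 8 genes: dlg1, scrib, cora and Nrg. Lower candidates alone lay at l(2)gl, and no candidate of any rank lay at Nrx-IV, sinu or kune. Among all protein-coding genes, 29.0% had a strong peak by the same rule and 61.5% had any candidate. The 8 genes held 14 strong summits and 72 lower candidates in all. Of the 14 strong summits, 13 lay in an intron and 1 in a 5′ UTR. In protein-coding genes of 10 to 70 kb, where strong summits numbered 2049, 87.7% were in an intron by the same rule. Within 1000 bp of a transcription start site (TSS), strong peaks lay at 3 of the 8 genes, against 22.3% of all protein-coding genes. These were dlg1, scrib and cora, and they held 6 of the 14 summits. That count of summits has no share of all strong summits beside it and is a description only. Required to lie among the top 5219 regions of both remaining replicates, the strong summits numbered 8 without replicate 1, 7 without replicate 2 and 11 without replicate 3, and each of the 4 genes kept at least 1.

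**Figure D1:**
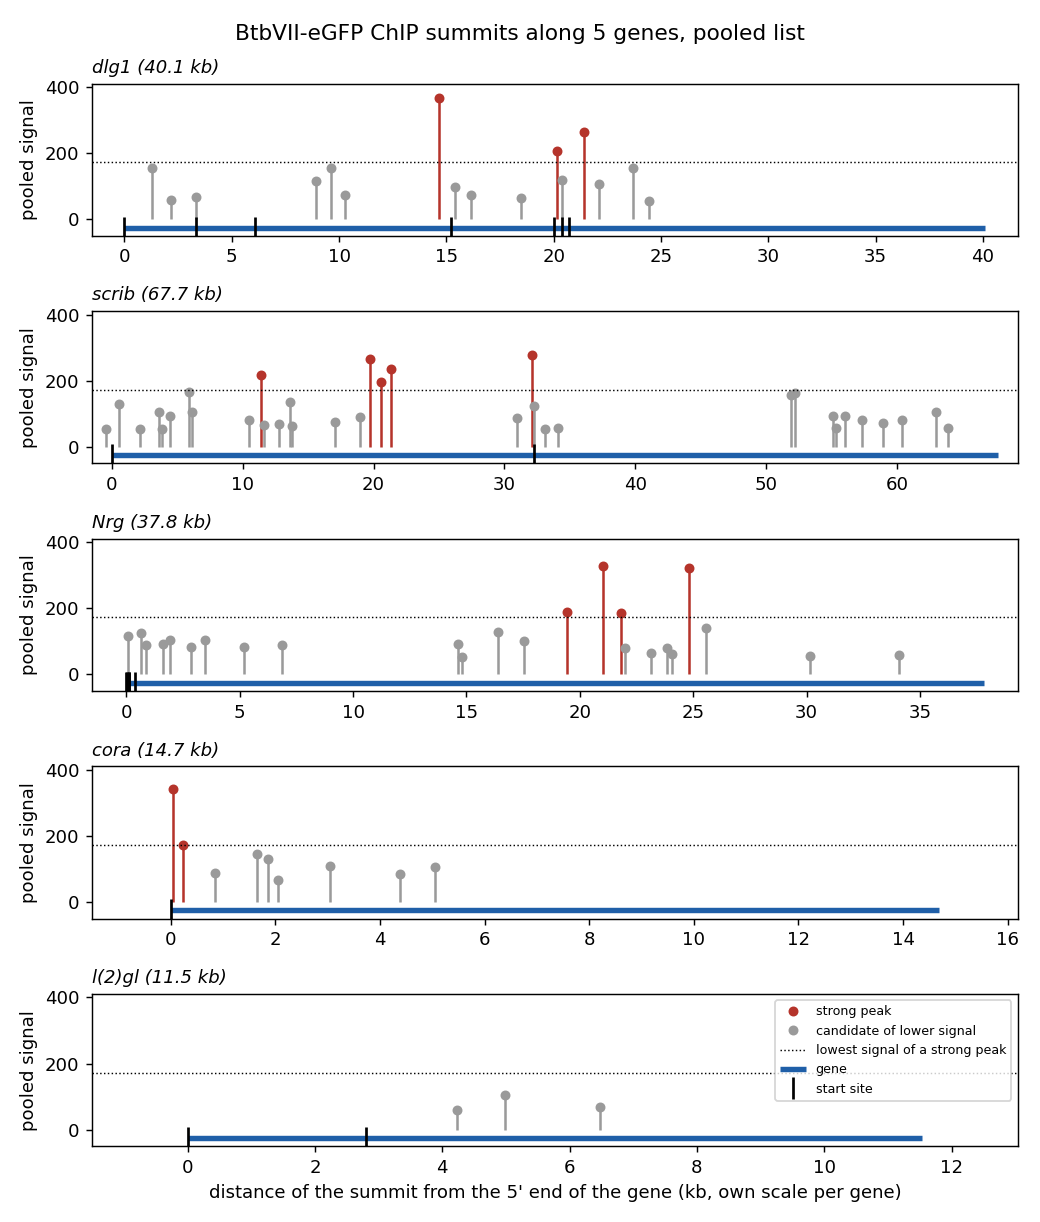
Pooled signal of every candidate summit along dlg1, scrib, Nrg, cora and l(2)gl, against the distance from the 5′ end of the gene in kb. Red marks strong peaks, grey marks lower candidates, the blue bar is the gene, and black ticks are start sites; cora has its strong peaks at the start site, Nrg has them 19.4 to 24.8 kb inside the gene, and l(2)gl has none.

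The gene dlg1 encodes a scaffold protein with PDZ, SH3 and guanylate kinase-like domains. It spans 40.1 kb of the X chromosome (11369665 to 11409776, plus strand) and has 7 annotated TSSs. Its strong peaks lay at the downstream TSSs, and none lay within 1000 bp of the first, which starts 7 of its 21 transcripts. Peak 1 (X, 11384245 to 11384428) had a signal of 367.9, the highest of the 14, and a pooled rank of 1396. Its summit was 559 bp upstream of the fourth TSS, from which dlg1-RK starts. The region was 184 bp wide, while 79.7% of strong peaks were 450 bp wide and 7.55% were under 200 bp. The ranks of peak 1 were 1157, 1649 and 1979 in replicates 1, 2 and 3, so each list placed it among its strongest 5219.

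Peak 2 of dlg1 (X, 11389578 to 11390027, signal 205.6) lay 135 bp downstream of the fifth TSS, which starts 6 transcripts. Its ranks in the same order were 3838, 4428 and 7559, which left it outside the top 5219 of replicate 3. Peak 3 (X, 11390849 to 11391298, signal 264.1) lay 702 bp downstream of the seventh TSS. Its ranks were 2558, 1487 and 5028 in replicates 1, 2 and 3, inside the top 5219 of each. At the first TSS of dlg1 and at the third TSS no candidate lay within 1000 bp, and at the second the only candidate had a signal of 68.4 and a rank of 20975. Just outside that window, 1297 bp downstream of the first TSS, lay a lower candidate with a signal of 155.8 and a rank of 6150. It ranked 8895, 5129 and 10228 in replicates 1, 2 and 3. All 3 strong summits were in introns of dlg1, with no other annotated gene at them.

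The gene scrib encodes a scaffold protein with leucine-rich repeats and PDZ domains. It is the longest of the 8 genes, at 67.7 kb (3R, 26536350 to 26604051, plus strand), and it held the most strong summits, 5, along with 29 lower candidates. Peak 5 (3R, 26568216 to 26568665) had a signal of 278.3, a rank of 2282, and lay 172 bp upstream of the second TSS, from which only scrib-RS starts. Its replicate ranks were 3056, 1993 and 2199. The first TSS, which starts the other 17 transcripts, had no strong peak within 1000 bp. The best candidate there, 572 bp downstream, had a signal of 129.8 and a rank of 8165. It was among the top 5219 of replicate 2 (rank 4404) and replicate 3 (rank 4730), but no region of replicate 1 held it. The only other candidate there, upstream of the TSS, had a signal of 55.04 and a rank of 28374. It ranked 3764 in replicate 1, and no region of replicates 2 and 3 held it. Each replicate thus placed a region near this TSS in its top 5219, but replicate 1 at a different candidate from replicates 2 and 3.

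The other strong peaks of scrib lay deep in introns. Peaks 2, 3 and 4 were neighbours, with summits 841 and 800 bp apart, between 19.7 and 21.4 kb from the 5′ end of the gene. Peak 2 (3R, 26555837 to 26556286, signal 264.2) ranked 4146, 1842 and 2874 in replicates 1, 2 and 3. Peak 3 (3R, 26556678 to 26557127, signal 196.1) ranked 4788, 4889 and 9953. Peak 4 (3R, 26557478 to 26557927, signal 235.3) ranked 1918, 4018 and 6778. Replicate 3 thus placed 1 of these 3 neighbours in its top 5219, and replicates 1 and 2 placed all of them there. Peak 1 (3R, 26547551 to 26548000, signal 218.1) lay 11.4 kb into the gene and ranked 5734, 3338 and 3313. Its nearest TSS of any gene was that of lncRNA:CR46084, a non-coding RNA gene inside scrib, 4.57 kb away.

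The gene l(2)gl encodes the lethal giant larvae protein, the partner of Scrib and Dlg1 on the lateral membrane. It lies close to the end of chromosome arm 2L (9839 to 21376, minus strand) and spans 11.5 kb. It had 3 candidates and no strong peak. They lay 1425, 2184 and 3675 bp downstream of the nearest TSS, with signals of 60.0, 104.5 and 68.5, and none was within 1000 bp of either TSS. The best of them (rank 11314 in the pooled list) ranked 14680 in replicate 1 and 6796 in replicate 3, and no region of replicate 2 held it. The same was true of the other candidates of l(2)gl: replicate 2 held neither of them. The nearest strong summit was 45.6 kb away, 72 bp from the TSS of dbr.

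The gene cora encodes Coracle, a FERM-domain protein that binds the cytoplasmic tail of Neurexin IV. It spans 14.7 kb (2R, 19229063 to 19243751, plus strand), and all of its 6 transcripts start at 1 TSS. Both of its strong peaks lay there, in contrast to the internal peaks of scrib and Nrg. Peak 1 (2R, 19228875 to 19229324) had a signal of 343.2 and a pooled rank of 1577, with its summit in the 5′ UTR, 37 bp downstream of the TSS. Its ranks were 2606 in replicate 1, 1524 in replicate 2 and 1230 in replicate 3, well inside the top 5219 of every list. Peak 2 (2R, 19229081 to 19229530, signal 174.0) overlaps peak 1, with summits 206 bp apart. It ranked 5137 in the pooled list, near the lower end of the strong peaks. In replicate 1 a single region at rank 2606 held both summits, replicate 2 placed peak 2 at rank 3353, and no region of replicate 3 held it.

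The adhesion molecules of the junction differed from each other. Nrg encodes Neuroglian, an L1-type cell adhesion molecule with immunoglobulin domains. It spans 37.8 kb (X, 8517373 to 8555170, plus strand). Its 5 TSSs are clustered at the 5′ end, and no strong peak lay within 1000 bp of them. The best candidate there had a signal of 124.8 and a rank of 8674; it ranked 2945 in replicate 3 and 14221 in replicate 2, and no region of replicate 1 held it. The 4 strong summits of Nrg lay instead in introns between 19.4 and 24.8 kb from the 5′ end.

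Peak 2 of Nrg (X, 8538149 to 8538598) had a signal of 329.3 and a rank of 1707, and it ranked 1721, 1985 and 2762 in replicates 1, 2 and 3. Peak 4 (X, 8542100 to 8542222) had a signal of 323.1 and a rank of 1775, with ranks of 1653, 2481 and 2009. These values put both among the top 5219 of each replicate. The region of peak 4 was 123 bp wide, the narrowest of the 14. Peak 1 (X, 8536592 to 8537041, signal 188.1) ranked 4457, 6564 and 5492, and peak 3 (X, 8538959 to 8539408, signal 185.6) ranked 5337, 5908 and 4941. Each of this weaker pair was in the top 5219 of a single replicate, replicate 1 for peak 1 and replicate 3 for peak 3. The nearest TSS to all 4 summits belonged to PIP82, a gene on the other strand inside Nrg, at 7.12 to 12.5 kb. When each summit was given only to the owner of its nearest TSS, Nrg lost all 4 and scrib lost its peak 1, and 9 summits at 3 of the 8 genes were left.

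Nrx-IV encodes Neurexin IV, the membrane protein that Coracle binds. It spans 10.5 kb (3L, 12146519 to 12156990, plus strand) and contains the gene CG32099. No candidate lay in it or within 1000 bp. The nearest candidate was 5.11 kb away, with a signal of 91.3 and a rank of 13796. The nearest strong summit was 7.94 kb away, 9 bp from the TSS of ND-SGDH.

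The genes sinu and kune encode claudin-like proteins, which span the membrane and are needed for the barrier. They are the shortest of the 8, at 2.13 kb for sinu (3L, 5559470 to 5561598, minus strand) and 1.06 kb for kune (2R, 5671741 to 5672800, plus strand). Neither had a candidate of any rank. The nearest candidate to sinu was 1.75 kb away, at a signal of 63.4, and the nearest strong summit 4.88 kb away, at 175.6. For kune these distances were 6.11 kb, at a signal of 68.4, and 309 kb, at Src42A.

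**Figure D2:**
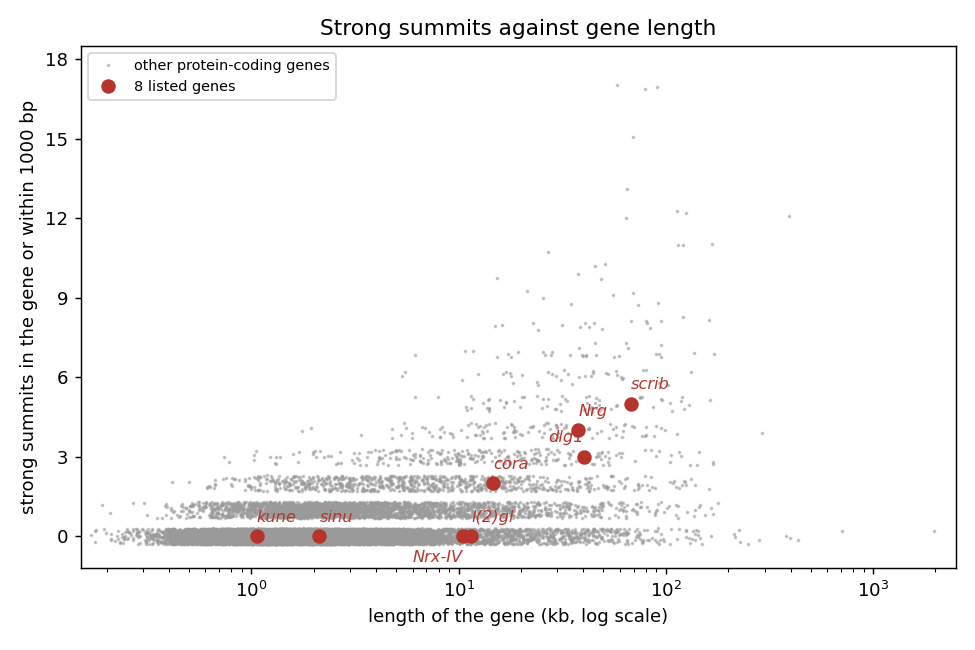
Strong summits in each gene or within 1000 bp, against gene length in kb on a log scale. Red points are the 8 listed genes and grey points are the other protein-coding genes, spread slightly up and down to separate them; of the listed genes, scrib is the longest and has the most strong summits, 5.

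The number of strong summits in these genes has to be read beside their length, because a longer gene offers more room for a summit. The length ranges below were set after the lengths of the 8 genes were known. Between 30 and 70 kb, where dlg1, scrib and Nrg lie, 61.0% of 490 protein-coding genes had a strong summit, with a median of 1 and a maximum of 17. Of these, 14.3% had at least as many as the 5 of scrib, 20.6% at least as many as the 4 of Nrg and 27.6% at least as many as the 3 of dlg1. Between 10 and 15 kb, where cora, l(2)gl and Nrx-IV lie, 53.4% of 618 genes had a strong summit, and 27.0% had at least the 2 of cora. In this range 13.1% of genes had no candidate at all, as Nrx-IV had none. Between 1 and 3 kb, where sinu and kune lie, 22.9% of 5954 genes had a strong summit and 44.1% had no candidate. Over the 8 genes and their margins, 202 kb in all, strong summits stood at 0.695 per 10 kb, and over all protein-coding genes at 0.538 per 10 kb. A summit counted once for each gene whose window held it. Genes of 1 to 3, 10 to 15 and 30 to 70 kb stood at 0.717, 0.728 and 0.411 per 10 kb. Of the listed genes, dlg1 stood at 0.712, scrib at 0.717, Nrg at 1.01 and cora at 1.20, and l(2)gl, Nrx-IV, sinu and kune at 0. The count and density of cora rest on 2 overlapping regions, with summits 206 bp apart. The weaker of the pair had a signal of 174.0, close to the lowest of any strong peak, 172.4. These shares and densities are descriptions, and no test was made of them.

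The peaks of these genes were of middling strength for strong peaks. The 14 signals had a median of 250 and a range of 174.0 to 367.9, while the 5219 strong peaks had a median of 258.0 and reached 3724. Among the 4057 protein-coding genes with a strong peak, the median rank of the best one was 1984. The best ranks were 1396 for dlg1, 1577 for cora, 1707 for Nrg and 2282 for scrib. A better best rank was held by 38.1% of those genes in the case of dlg1 and by 55.3% in the case of scrib. The 4 genes thus lay in the middle of this order.

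**Figure D3:**
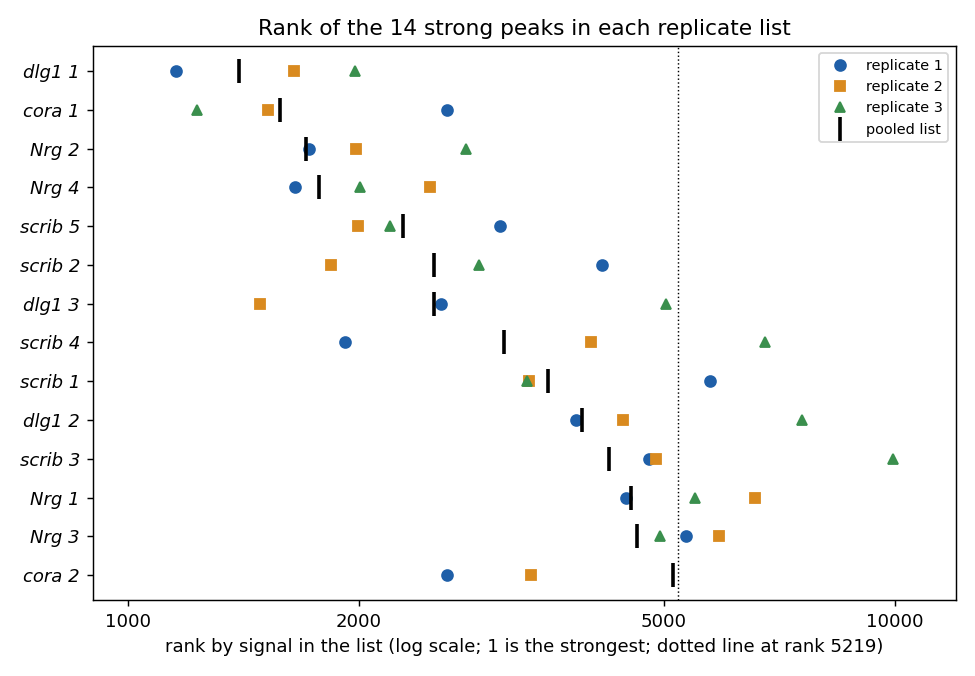
Rank by signal of each of the 14 strong peaks in replicates 1, 2 and 3 and in the pooled list, on a log axis, with peaks numbered from the 5′ end of their gene and ordered by pooled rank. The dotted line is rank 5219; points to its left are among the strongest regions of that replicate, and cora peak 2 has no point for replicate 3, whose list holds no region over it.

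Of these peaks, those with a higher pooled signal were the ones that every replicate placed near its top. All 3 replicates held 7 of the 14 in their top 5219: dlg1 peaks 1 and 3, scrib peaks 2 and 5, cora peak 1 and Nrg peaks 2 and 4. These 7 are also the 7 of highest pooled signal, and each of the 4 genes has at least 1 of them. The pooled list is made from the same replicates, so part of this order is built in. Another 5 peaks were in the top 5219 of 2 replicates, and the remaining 2, both of Nrg, were in that of 1. Replicates 1 and 2 each had 12 of the 14 in their top 5219, and replicate 3 had 9. Over all strong peaks replicate 3 also held the fewest, at 75.7%, against 84.3% for replicate 1 and 84.2% for replicate 2. Of the 3742 strong peaks that lie in the same range of pooled ranks as the 14, 46.2% were in the top 5219 of all replicates. Of the 72 lower candidates at these genes, 23 (31.9%) lay in any region of every replicate, against 30.6% of all lower candidates.

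Base content and short words were read in the window of 201 bases around each of the 14 strong summits. GC content averaged 37.7% ± 5.81 (SD, n = 14 windows) and was the same on average over all strong peaks, at 37.7% ± 8.16 (SD, n = 5219). It was 41.0% ± 7.22 (SD, n = 72) at the lower candidates of the same genes and 40.6% ± 8.11 (SD, n = 24781) over all lower candidates. Some windows of the same gene are close neighbours, and the peak regions of the pair at cora overlap, so these are not independent values. The core of the GAGA factor site, GAGAG, was present in 4 of the 14 windows on either strand, against 27.8% of all strong windows and 24.1% of all lower ones. It was in scrib peaks 3 and 5 and in both cora peaks, and in none of the 7 windows of dlg1 and Nrg. In scrib peak 5, upstream of the second TSS, it occurred 3 times, and that window also held the longer run GAGAGA, which lies in 13.5% of all strong windows. The DNA replication-related element, TATCGATA, was in none of the 14 and in 1.99% of all strong windows. The repeat CACACA was in 2 of the 14, both at cora, against 18.6% of all strong windows and 20.2% of all lower ones.

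Words of 6, 7 and 8 letters were also ranked over all strong windows against all lower ones, without regard to these genes. This search was exploratory: the word lengths, the fewest windows required and the words reported were settled after first results had been seen. Of 1943 words of 6 letters found in at least 150 strong windows, ACAGTG had the highest ratio: 16.0% of strong windows held it on either strand against 9.89% of lower ones, a ratio of 1.62. It was in dlg1 peak 1, scrib peak 1 and Nrg peak 3, which makes 3 of the 14, and in 7 of the 72 lower candidates at these genes. Of 1714 words of 7 letters found in at least 150 strong windows, ACAGTGG, which contains the first, led with a ratio of 2.05. Of 1951 words of 8 letters found in at least 80 strong windows, the palindrome TGACGTCA had the highest ratio, at 2.96, with 1.65% of strong windows against 0.557%. This word is the binding sequence of CREB and ATF proteins. Of the 14 windows it was in that of scrib peak 3 alone, and of the 72 lower windows it was in none. A match describes letters in a window and is not evidence of a bound factor, and the absence of a word says nothing about one.

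Reading the dlg1 windows showed another shared word, TTGTGCA. It was in each of the 3 dlg1 windows, in peak 3 at 2 places, and also in scrib peak 4 and Nrg peak 4. Because it was picked from these windows, its 5 of 14 is a description of them and supports nothing. Over all strong windows it was present in 3.93%, and over all lower ones in 3.92%, so the shares were nearly equal over the whole list. Another 20 words, most of them shifted or extended forms of TTGTGCA and ACAGTG, were counted in the same search, with ratios of strong to lower windows from 0.852 to 2.05.

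The other genes of the same junctions give a setting for these 8. A wider list held 40 genes: 23 further septate junction components, 10 apical and lateral polarity regulators and 7 adherens junction components. Of these, 25 (62.5%) had a strong peak in the gene or within 1000 bp, against 29.0% of all protein-coding genes. Within 1000 bp of a TSS, 21 (52.5%) had one, against 22.3% of all protein-coding genes. Of the 8 genes described above these were 4 and 3. Their median length was 8.34 kb, that of the 8 genes 13.1 kb and that of all protein-coding genes 2.16 kb. The genes of the wider list are thus also longer than most, and these shares were not adjusted for length. No candidate of any rank lay at 6 of the 40 (15.0%), against 38.5% of all protein-coding genes; they were crim, crok, Patj, Cdc42, alpha-Cat and p120ctn.

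Among the further septate junction components, 14 of 23 (60.9%) had a strong peak, against 29.0% of all protein-coding genes, and 12 of 23 (52.2%) had one near a TSS, against 22.3%. The highest signals near a TSS were at nrv1 and Atpalpha, which encode subunits of the sodium-potassium pump. The beta subunit gene nrv1 had a peak 250 bp upstream of a TSS with a signal of 873.9, which ranked 284, 191 and 271 in replicates 1, 2 and 3. The alpha subunit gene Atpalpha had one at 656.9, 338 bp upstream, which ranked 301, 559 and 1109. Both stood above every peak of the 8 genes. A second beta subunit gene, nrv2, was far lower, at 216.1, with ranks of 3611 and 3233 in replicates 1 and 2 and of 26176 in replicate 3. Nothing in these data shows which beta subunit serves the junction. Between nrv2 and the leading pair came Tsf2, which encodes an iron-binding transferrin of the junction, at 338.1, and cold, which encodes a Ly6-type protein needed to assemble it, at 328.4. The scaffold gene vari was at 292.3, and Gli and bark, whose products mark the corners where 3 cells meet, were at 285.4 and 272.3. For Cont, the immunoglobulin-family partner of Neurexin IV and Neuroglian, the best candidate near a TSS was a lower one, at 128.4. Its best anywhere in the gene or within 1000 bp was also a lower one, at 134.9. The claudin-like gene pck had a lower candidate at 150.2, 5 bp from its TSS, while sinu and kune had none.

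Of the polarity regulators, 7 of 10 (70.0%) had a strong peak, against 29.0% of all protein-coding genes, and 5 of 10 (50.0%) had one near a TSS, against 22.3%. The highest signals near a TSS were at Moe, which encodes the membrane linker Moesin (411.8), at par-6, which encodes a partner of atypical protein kinase C (389.4, with its summit also in CG8188), and at sdt, which encodes the scaffold that binds Crumbs (340.1). The gene baz, singled out after its values were seen, had a signal of 858.1 away from its TSSs and only a lower candidate near them, at 108.1. Of the adherens junction genes, 4 of 7 (57.1%) had a strong peak, and all 4 had one near a TSS, against the same shares of all protein-coding genes. They were cno, the afadin homologue (362.5 near a TSS), pyd, the ZO-1 homologue (342.5), shg, which encodes E-cadherin (231.5), and ed, which encodes an immunoglobulin-family adhesion protein (205.6).

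**Figure D4:**
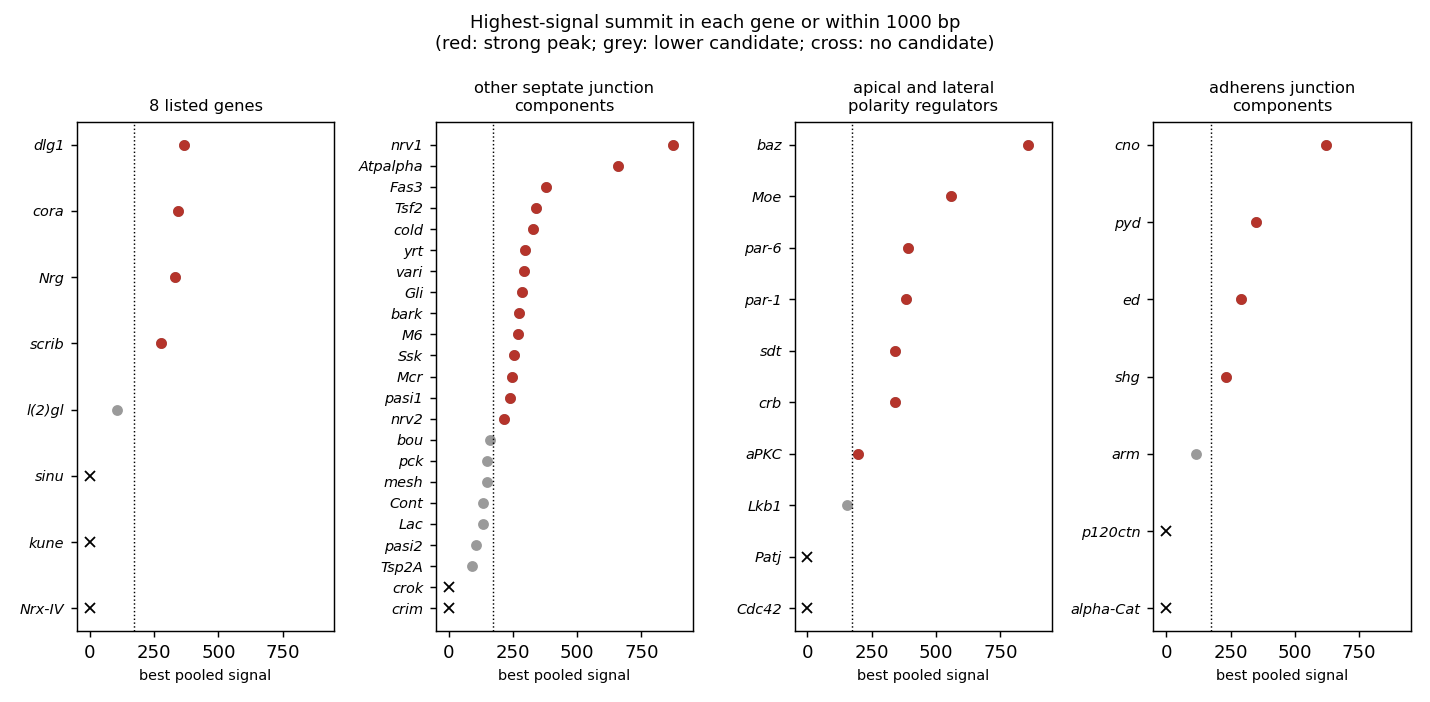
Highest pooled signal of any candidate summit in each gene or within 1000 bp, for the 8 genes and the 3 groups of the wider list. Red points are strong peaks, grey points are lower candidates and crosses are genes with no candidate; dlg1 is the highest of the 8 at 367.9, and nrv1 the highest of all 4 panels at 873.9.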

How the data were processed

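ChIP-seq region lists were analysed for 3 replicates of embryos with eGFP-tagged BtbVII. Sonicated chromatin had a stated size range from 200 up to 800, with no unit in the labels. The signal values were deposited by the authors in narrowPeak lists on dm6: peaks and background for IDR, and the thresholded optimal set. Per the deposited README files, each list came from the replicate alignments and a further alignment. For the aligner, the peak caller and the IDR threshold: not given in the sources used here. Lists on dm3 were not used here.

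Gene models were Ensembl release 115 (BDGP6.54), without transposons, and the genome was Release 6, whose coordinates are those of dm6, here counted from 1. A replicate rank is that of the highest region holding the pooled summit. Summit assignment was checked on simulated positions. The word search was exploratory and its settings followed the first results; a first round of 6-letter words used the higher-signal 2609 strong windows alone. The members and lists were chosen with earlier results of these data known. The named genes were all 8, and of the wider list up to 12 with values, those of highest signal near a TSS; nrv2, shg, ed, Cont, pck and baz were added after their values were seen. In the wider list, 1 older symbol was replaced through RefSeq. Python 3.11.15 and pandas 2.3.3 were used. No test was made, because the series holds 1 group and the genes were chosen by name. Alternatives were another window, another threshold, each replicate left out and another assignment of summits.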

Additional observations from a re-analysis of the deposited data

How the results depend on the processing

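The count of listed genes with a strong peak was 4 as reported and with windows of 500 and 2000 bp, among the higher-signal 2609 strong peaks, among peaks supported by all 3 replicates and with each replicate left out in turn; it was 3 when a summit counted only for the owner of its nearest TSS. The count near a TSS was 3 under all 8 of these alternatives. The 14 strong summits stayed 14 with either window but numbered 7 in the higher-signal 2609, 7 with support from all 3 replicates and 9 by nearest TSS. They numbered 7 to 11 with a replicate left out, which by construction requires both of the others. In the wider list, 25 genes had a strong peak as reported and 19 to 26 under the alternatives. Near a TSS there were 21 as reported and 13 in the higher-signal 2609, which by construction holds fewer peaks. The other alternatives gave 15 to 23. No shares of all protein-coding genes under these alternatives are given, so the counts describe the lists alone. The 7 strong summits in the top 5219 of every replicate were also 7 when a replicate summit within 250 bp was used instead. No paired analysis was possible because the series has a single group. Depth is unknown, so what it limits could not be measured.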
